A study of Drosophila melanogaster with 14 samples.

Results

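Most miRNA hairpins yield 2 mature products, the 5p and the 3p arm, and the arms described here are those that small RNA sequencing of Drosophila melanogaster embryos barely caught. The count table lists 466 arms. The 93 rare arms were chosen by their summed count alone, at least 3 and at most 50 reads over all 14 libraries. Of the other arms, 215 had no count, 61 had 1 or 2 counts and 97 had more than 50. The 93 arms come from 78 hairpins, 15 of which contributed both arms. They include the let-7 complex, mirtrons, clusters known from testis and many passenger arms. Their totals were spread over the whole range, with a median of 13. The largest were miR-309-3p and miR-7-5p with 45 counts each, and the nearest arms outside the limit were miR-286-5p with 51 and miR-987-5p and miR-993-5p with 53. At the lower end 9 arms had exactly 3 counts, and 27 arms with 2 counts fell outside.

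The samples are whole embryos at 7 labelled stages, with 2 libraries per stage. Stages are numbered 1 to 7 in the labels, with times of 160, 300, 530, 645, 930, 1160 and 1300 min but without a starting point and without a strain, a genotype or a number of embryos. Stages 5 to 7 are called late here (6 libraries), stage 4 stands between, and stages 1 to 3 are called early (6 libraries). Whether both libraries of a stage stem from independent embryo collections is not given in the labels, and p-values cover only the variation among these samples, which may be technical.

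A hairpin is cut by Dicer into a duplex, of which Argonaute usually keeps the guide strand and discards the other, the passenger. A rare arm can therefore be a discarded strand of an abundant hairpin, or the guide of a hairpin that few embryonic cells transcribe. Below, a rare arm is called a passenger only because its partner arm had more counts here. Such an arm need not be the discarded strand, above all where both arms had similar counts. Mirtrons are hairpins released from short introns by splicing rather than by Drosha. The let-7 complex carries the timing miRNAs let-7, miR-100 and miR-125 in a single transcript and is known for its rise at the end of larval life. In RNA of whole embryos, fewer cells of a type and less RNA per cell cannot be told apart. No sequences are printed, since none were at hand for these arms.

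Together the 93 arms held 1479 of 573906 counts, or 0.258%. Library totals ran from 17462 to 72507 counts, so that a single count is worth 57.3 CPM (counts scaled to a total of 1000000) in the shallowest library and 13.8 CPM in the deepest. No rare arm was found in all 14 libraries. The most widespread, miR-1003-3p, was found in 13 of them, 13 arms were found in 9 or more, 31 in 2 to 4, and 2 (miR-1015-3p and miR-972-3p) in a single library. None of the 93 passed the usual low-count filter by stage, which 85 arms of the table passed. The test below was therefore run over all 190 arms with 3 or more counts.

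The rare arms took a larger share of late libraries, but their choice by summed count can favour this. The rare arms made up 0.337% ± 0.0516 of counts in late libraries (SD, n = 6), 0.235% ± 0.029 at stage 4 (n = 2) and 0.173% ± 0.0334 in early libraries (n = 6). Late libraries ran from 0.282% to 0.412% with a median of 0.318%, and early libraries from 0.141% to 0.237% with a median of 0.165%. The groups did not overlap. Among the rare arms, 18 had counts in late libraries only and 3 in early libraries only. Such arms met the lower limit of 3 counts through that period alone. Late libraries are also deeper in sum (263404 counts, against 210474 early). How far this choice accounts for the larger late share was not tested. The exact 95% binomial interval of the lowest late library was 0.243% to 0.325%, and that of the highest early library 0.181% to 0.306%. These intervals cover counting error only, since the reads carry no molecular identifiers. The floors used below cover the counting error of an empty group only.

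In the share of counts, that difference was not seen once a single abundant arm was taken out of the denominator. miR-286-3p belongs to the miR-309 cluster, which is switched on at the blastoderm stage. It took 15.3% ± 5.5 of counts in late libraries and 60.1% ± 3.53 in early libraries (SD, n = 6 each). With its reads set aside, the rare arms held 0.397% ± 0.038 of the remaining counts in late libraries and 0.438% ± 0.114 in early libraries, and the ranges overlapped (0.364% to 0.459% late, 0.333% to 0.653% early). The late minus early difference was then -0.0418 percentage points, in place of 0.165 with miR-286-3p included. The negative sign rested on stage 1 replicate 2 (0.653%). Without that library the rare arms held 0.397% of the remaining counts in late libraries and 0.396% in early libraries, a difference of 0.00119. Against effective library sizes (totals times the TMM factors used below), the groups stayed apart. On that scale the rare arms summed to 2410 to 3870 CPM in late libraries and 1820 to 2270 CPM in early libraries. The 68 arms not called below held 0.138% ± 0.0176 of all counts in late libraries, 0.203% ± 0.00424 at stage 4 and 0.129% ± 0.015 in early libraries. Since the 25 called arms were set aside for differing between late and early, the small late minus early difference among the rest follows from that choice.

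**Figure D1:**
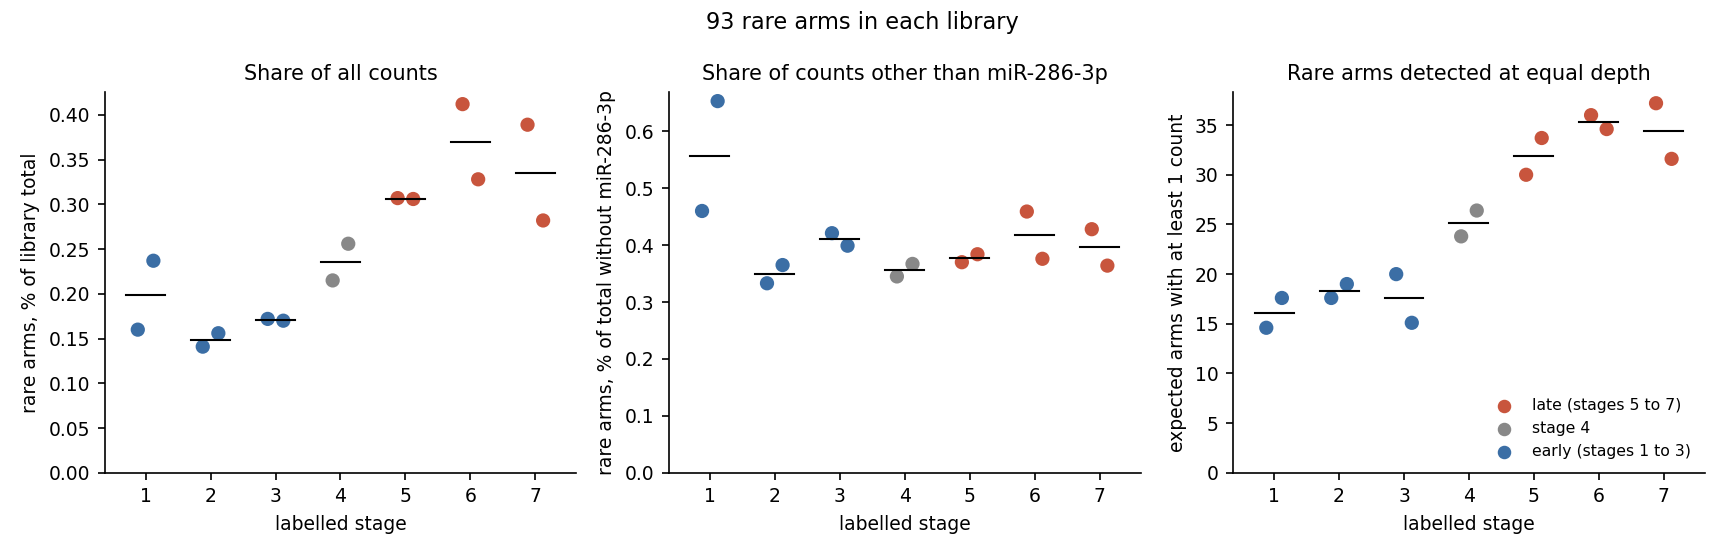
Each point is a library at its labelled stage (x axis) and each line the mean of a stage. The left panel shows the 93 rare arms as a percentage of the library total, the middle panel as a percentage of the total without miR-286-3p, and the right panel the number of rare arms expected with at least 1 count when each library is thinned to 17462 counts. Late libraries sit between 0.282% and 0.412% on the left, above the early ones (0.141% to 0.237%), while in the middle panel they overlap with them.

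More of the 93 arms were detected per late library, but the choice of arms favours this. Of the 93, 18 had counts in late libraries only and 3 in early libraries only, so that they met the limit of 3 counts through that period alone, and late libraries are deeper in sum (263404 counts, against 210474 early). The numbers below are therefore a description of the chosen arms. As deposited, late libraries held 36 to 69 of the 93 arms (median 51) and early libraries 20 to 35 (median 23.5), but depth differs between libraries. When every library was thinned to 17462 counts, the total of the shallowest, the expected number was 33.9 ± 2.69 in late libraries (SD, n = 6), 25.1 ± 1.84 at stage 4 (n = 2) and 17.3 ± 2.12 in early libraries (n = 6). The ranges, 30 to 37.2 late and 14.6 to 20 early, did not overlap. The arms with more than 50 counts, measured the same way, numbered 91.0 ± 1.08 of 97 in late libraries and 72.6 ± 5.93 in early libraries. miR-286-3p entered here too. With its reads removed before thinning, 24.9 ± 1.3 rare arms were expected in late libraries and 20.3 ± 2.5 in early libraries, with ranges of 22.8 to 26.4 and 16.9 to 23.5 that overlapped.

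Single arms were then compared between late and early libraries on a scale meant to reduce the effect of such composition (TMM factors, which ran from 0.689 to 1.27). With edgeR's quasi-likelihood test and Benjamini-Hochberg adjustment at 0.05 over 190 arms, 21 rare arms rose (22.6% of 93) and 4 fell (4.3%), while 68 did not pass. The background over all 190 tested arms was 36.3% higher and 15.8% lower, so the called share of rare arms was below the background in both directions. An unadjusted p under 0.05 in edgeR was reached by 36 of the 93 rare arms, against 110 of all 190 tested arms. Calls were more frequent at higher totals. None of the 37 arms with totals of 3 to 9 passed, 6 of 23 passed with totals of 10 to 19 and 19 of 33 with totals of 20 to 50. The smallest called total was 10. For arms below that, the lack of a call does not show a steady level.

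Directions were also counted without a threshold. By pooled level (late or early counts over the summed effective library sizes), 53 rare arms (57.0%) were higher in late libraries and 40 were not, against 62.9% higher among the 97 arms with more than 50 counts and 114 of all 190. With library size alone as the scale, 59 rare arms were higher. The median fitted log2 change was 0.52 for the rare arms and 0.58 for all tested arms, but it depends on the prior count, as 35 rare arms had no early count and 7 no late count. With those arms set against a floor of 3 counts over the group, the medians were 0.0 and 0.2. The 6 late libraries stood wholly above the 6 early ones for 7 rare arms (7.53%, background 25.3%) and wholly below for 1, where the background was 12.1%.

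**Figure D2:**
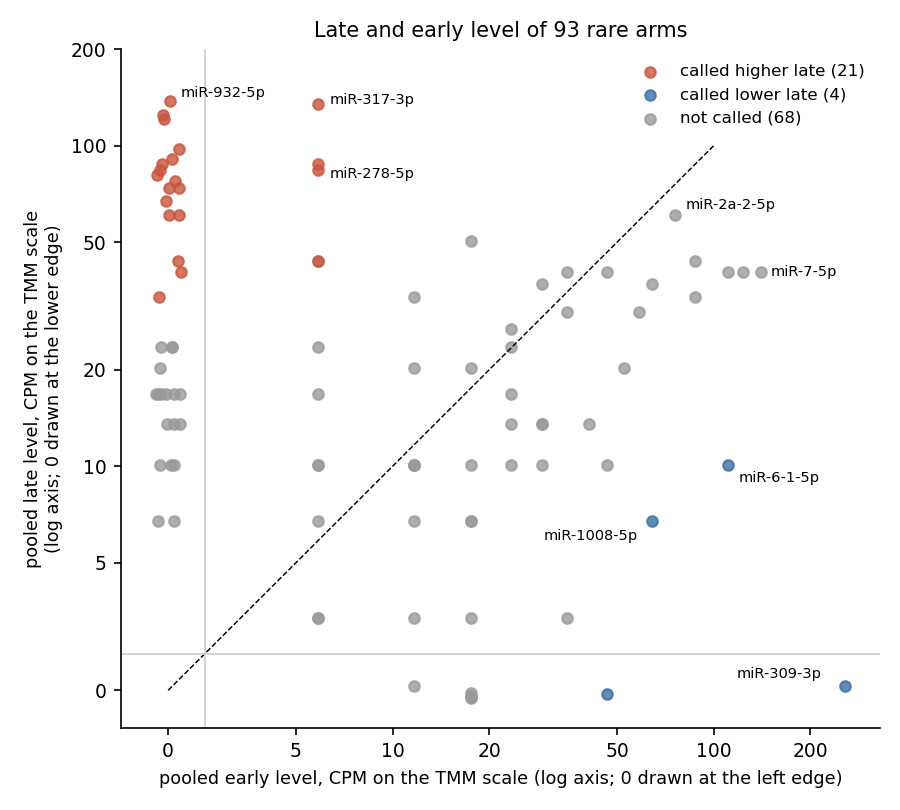
Each point is 1 of the 93 rare arms, with its pooled early level on the x axis and its pooled late level on the y axis, in CPM on the TMM scale with log axes and levels of 0 drawn at the edges. The dashed line marks equal levels. The arms called higher late lie at the left edge or at a single early count, and miR-309-3p lies at the lower right with 257 CPM early and none late.

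The arms that rose had almost no early reads, but the choice of arms by their summed count favours this. Of the 21, 17 had no early count and the other 4 had a single one. The upper limit on the summed count leaves little room for early reads in an arm called higher. Some of the 21, such as miR-1004-5p and miR-137-3p, had counts in late libraries only and met the lower limit through these alone. How this choice affects the p-values below was not tested. The highest pooled late level was that of miR-932-5p, from an intron of Neuroligin 2 (Nlg2), which encodes a synaptic adhesion protein (hairpin at 6902062 to 6902152 of chromosome 2L, plus strand, dm6). It had 3 to 12 counts in late libraries (median 6.0), against none in any early library. Every late library stood above every early one, and the arm was at least 7.88-fold higher against the floor (edgeR adjusted p = 0.000135). Its other arm, miR-932-3p, had 0 to 7 counts in late libraries (median 4.5), against none in early libraries (at least 4.61-fold, edgeR adjusted p = 0.00168). Here and below, such at least values set a pooled level against a floor of 3 counts in the empty group. They leave out the counting error of the other group and are not confidence limits.

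miR-137, a conserved miRNA known from the nervous system of vertebrates, gave both arms at similar levels. miR-137-3p had 1 to 12 counts in late libraries (median 5.0), against none in early libraries, and was at least 6.92-fold higher (edgeR adjusted p = 0.000296). miR-137-5p had 1 to 7 counts in late libraries (median 4.5), against 1 count in the early group, a pooled ratio of 15.0 whose 95% counting interval spans 2.46 to 614 (edgeR adjusted p = 0.00285). The early count was in stage 3 replicate 1, and without that library the arm was at least 3.93-fold higher. The late libraries stood apart from the early ones for the 3p arm, and overlapped for the 5p arm.

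miR-133-5p is the passenger of the muscle miRNA miR-133, whose 3p arm had 444 counts. It had 0 to 12 counts in late libraries (median 5.5), against none in early libraries, and was at least 7.11-fold higher (edgeR adjusted p = 0.000354). Stage 6 replicate 1, the shallowest library, had none, so the groups touched at 0. The 3p arm rose as well, with 407 late and 21 early counts (log2 fold change 3.27 ± 0.471, SE, edgeR adjusted p = 1.11e-06).

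miR-317, miR-277 and miR-34 lie together on chromosome 3R and are known for roles in metabolism and ageing of adult flies. They gave 3 rare arms with 67 late counts and 1 early count in all. miR-317-3p had 1 to 20 counts in late libraries (median 4.5), against 1 count in the early group, a pooled ratio of 23.1 (interval 3.91 to 933) (edgeR adjusted p = 0.00122). The ratio was 15.3 without stage 7 replicate 1, which held 20 of its 40 late counts, and at least 6.4-fold without stage 3 replicate 2, which held the early count. miR-277-5p, the passenger of the far more abundant miR-277-3p (612 counts), had 0 to 6 counts in late libraries (median 4.0), against none in early libraries (at least 4.23-fold, edgeR adjusted p = 0.0021). miR-34-5p, which in this table is the lesser arm of its hairpin, had 5 counts, all late, and did not pass.

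Several other arms rose with no early count. miR-990-5p, from an intron of CG8910, had 1 to 12 counts in late libraries (median 3.0) and was at least 5.57-fold higher (edgeR adjusted p = 0.000715). miR-955-5p had 3 to 6 (median 4.0) and was at least 4.8-fold higher (edgeR adjusted p = 0.000648). Both stood apart from the early libraries, as did miR-87-3p, with 2 to 4 late counts (median 3.0, at least 3.46-fold, edgeR adjusted p = 0.00268). In this table it is the lesser arm of a hairpin whose 5p arm had 132 counts. miR-971-3p, from an intron of radish (rsh), a gene known for a role in memory, had 0 to 10 late counts (median 3.0, at least 4.42-fold, edgeR adjusted p = 0.00368). miR-929-5p, from an intron of complexin (cpx), a regulator of synaptic vesicle release, had 0 to 5 (median 2.0, at least 2.5-fold, edgeR adjusted p = 0.0157). That last call ended in DESeq2 (adjusted p = 0.235) and with 1 coefficient per stage, within a range of 0.00776 to 0.235 over all settings.

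miR-278, known for its part in fat body energy balance, gave 22 late counts from the 3p arm (1 to 9, median 3.0) against none early, at least 4.23-fold higher (edgeR adjusted p = 0.00223). Its 5p arm had 0 to 13 late counts (median 3.0), against 1 early count in stage 1 replicate 2, a ratio of 14.4 (interval 2.36 to 592) (edgeR adjusted p = 0.0141). At stage 4 the 5p arm had 11 counts, all in replicate 2. The call of the 5p arm ended without stage 7 replicate 1 (edgeR adjusted p = 0.0522, ratio 9.16), with stages 6 and 7 against 1 and 2 (0.0799) and in DESeq2, within a range of 0.00426 to 0.0799. Without stage 1 replicate 2 it was at least 4.03-fold higher.

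Some calls rested largely on a single library. miR-314-5p had 15 of its 27 late counts and miR-314-3p 13 of its 20 in stage 7 replicate 1, while stage 7 replicate 2, of similar depth, had 0 and 2. They were at least 5.19-fold and 3.84-fold higher (edgeR adjusted p = 0.00561 and 0.00693), and at least 3.05-fold and 1.78-fold without that library, which left both calls in place. DESeq2 called neither (adjusted p = 0.0935 and 0.111), over ranges of 0.000573 to 0.0935 and 0.00313 to 0.111. miR-4951-5p had 7 of its 12 late counts in stage 6 replicate 1. It was at least 2.31-fold higher (edgeR adjusted p = 0.0338), and without that library at least 1.03-fold and no longer called (adjusted p = 0.11). Its call was also lost in DESeq2 (0.118) and with 1 coefficient per stage, where the adjusted p was 1.0, over a range of 0.00968 to 1.0. miR-4969-5p, from an intron of CASK, had 0.0494, the largest adjusted p of any call, with 1 to 5 late counts (median 1.5) and 1 early count. Its ratio was 7.49 (interval 1.13 to 318), at least 2.17-fold without stage 2 replicate 1, which held the early count, and 15 of 22 other settings ended its call (range 0.0154 to 0.264).

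**Figure D3:**
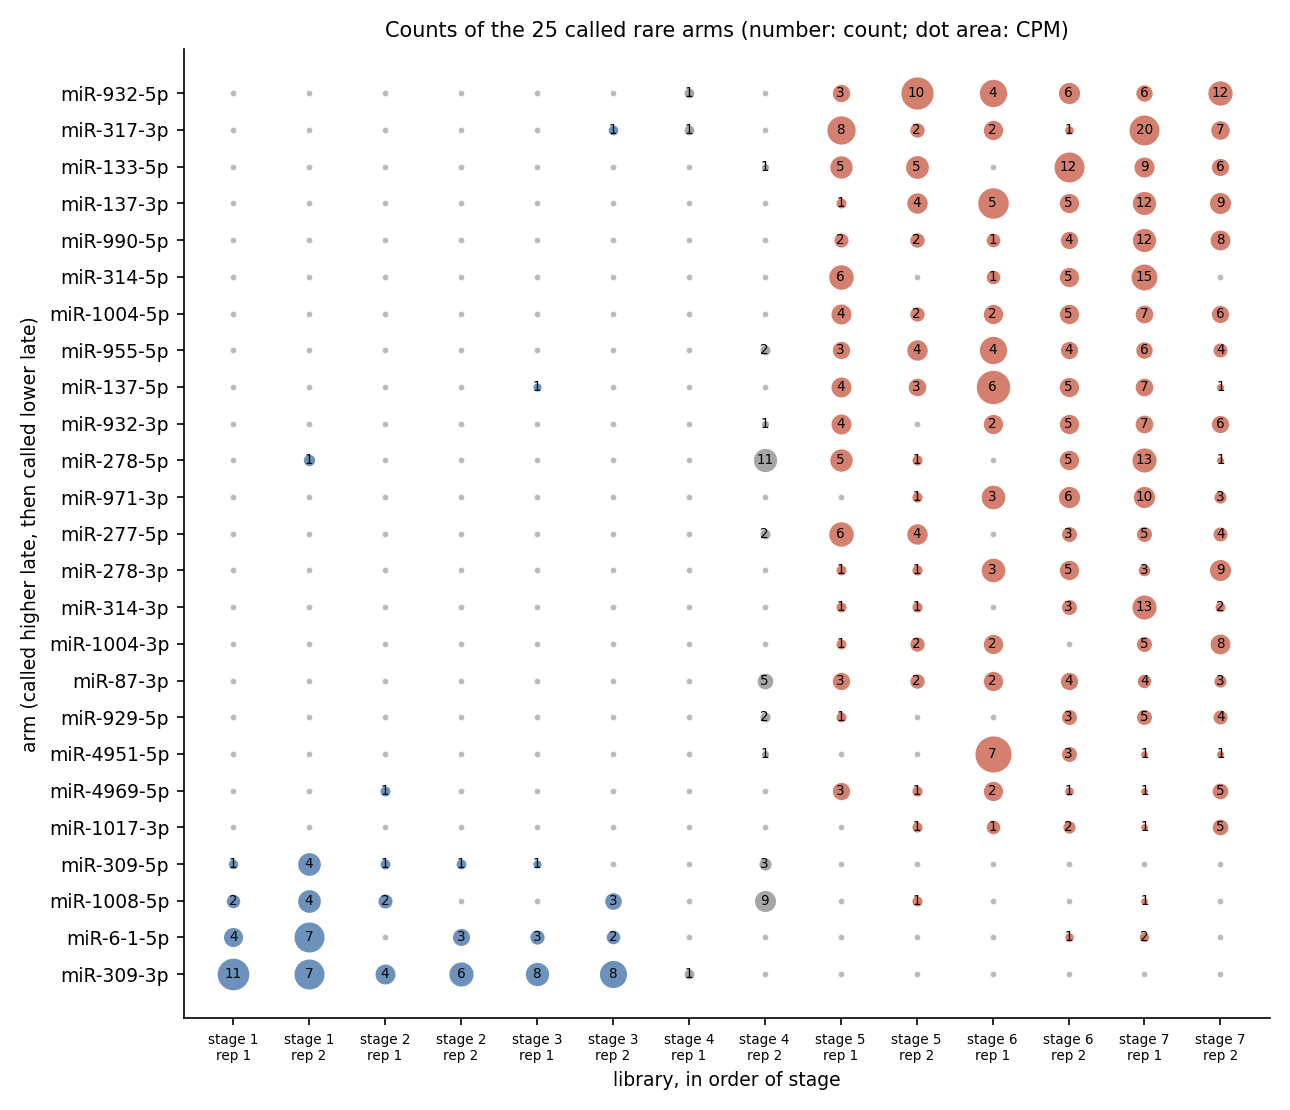
Rows are the 25 rare arms that passed the edgeR test, those higher late above those lower late, and columns are the 14 libraries in order of stage. The number is the count, the dot area is proportional to CPM of the library total, and small grey points mark a count of 0. Among the 21 upper rows only 4 counts fall in the 6 early libraries, and miR-309-3p has 4 to 11 counts in each early library and none in a late one.

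Of the 4 arms that fell, 3 belong to the miR-309 cluster, whose products help to clear maternal mRNA from the early embryo. miR-309-3p (hairpin at 19661706 to 19661774 of chromosome 2R, minus strand) had no count in any late library, against 4 to 11 counts in early libraries (median 7.5), with 1 count at stage 4. It was at least 25.5-fold lower late against the floor (edgeR adjusted p = 9.88e-07), and the groups did not overlap. Its passenger miR-309-5p had no late count, against 0 to 4 early counts (median 1.0), at least 4.63-fold lower late (edgeR adjusted p = 0.0043), and at least 2.76-fold without stage 1 replicate 2. miR-6-1-5p, a passenger from the first of the 3 miR-6 copies, had 0 to 2 counts in late libraries (median 0.0), against 0 to 7 in early libraries (median 3.0). Its pooled level was 10.1 CPM late and 111 CPM early, a ratio of 0.091 (interval 0.0172 to 0.309) (edgeR adjusted p = 0.00213), and 0.0402 without stage 7 replicate 1. miR-6-2-5p had 12 late and 21 early counts and did not pass (ratio 0.329, edgeR adjusted p = 0.173). Its ratio was 0.725 without stage 1 replicate 2, which held 13 of the early counts, and 0.158 without stage 5 replicate 2, which held 7 of the late ones. Of the 11 arms of the cluster that were tested, rare or not, 10 fell, and this list was chosen with that fall known.

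The fourth fall was a mirtron, miR-1008-5p, from an intron of CG18004. It had 0 to 1 count in late libraries, against 0 to 4 in early libraries (median 2.0), and 9 counts at stage 4, all in replicate 2. The pooled ratio was 0.105 with an interval of 0.0113 to 0.48 (edgeR adjusted p = 0.0177), and 0.0603 or 0.0694 without stage 5 replicate 2 or stage 7 replicate 1. The call ended without stage 1 replicate 2 (adjusted p = 0.0512) and with library size alone as the scale, where the range over settings was 0.00515 to 0.0512.

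Among 24 listed mirtron arms, 11 were rare, and together they had 90 late, 26 stage 4 and 32 early counts. Their summed level was 277 to 413 CPM in late libraries (median 341) and 62.3 to 317 CPM in early libraries (median 152), and the ranges overlapped. Of the 11, 3 rose (27.3%), 1 fell (9.09%) and 7 did not pass. Over all tested arms 36.3% were higher and 15.8% lower, so the called share of these mirtrons was below the background in both directions. Both arms of miR-1004, from an intron of CG43707 (hairpin at 3767621 to 3767688 of chromosome 2L), had no early and no stage 4 count. miR-1004-5p had 2 to 7 counts in late libraries (median 4.5), at least 4.99-fold higher (edgeR adjusted p = 0.000531), and miR-1004-3p 0 to 8 (median 2.0), at least 3.46-fold higher (edgeR adjusted p = 0.00637; DESeq2 did not call it, 0.0768, over a range of 0.0028 to 0.0768). miR-1017-3p, from an intron of the acetylcholine receptor gene nAChRalpha2, had 10 counts, all late, and was at least 1.92-fold higher (edgeR adjusted p = 0.0252). The call was lost without stage 7 replicate 2 (adjusted p = 0.0721, at least 1.27-fold), also when stage 4 replicate 1 was left out with it (0.0713), with 1 coefficient per stage (0.12), with stages 6 and 7 against 1 and 2 (0.0733) and in DESeq2 (0.301), over a range of 0.0127 to 0.301. miR-1003-3p, from an intron of CG6695, had 11 late, 11 stage 4 and 11 early counts, 1 to 3 per late library and 0 to 4 per early library (ratio 0.576, interval 0.227 to 1.47, edgeR adjusted p = 0.394). The remaining mirtrons miR-1003-5p, miR-1006-3p, miR-1009-3p, miR-1011-3p, miR-1012-5p and miR-1015-3p had 3 to 14 counts each. All 3 counts of miR-1015-3p were in stage 3 replicate 2.

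The let-7 complex was already present at stage 1 and showed no call. Its 3 rare arms are the guides let-7-5p, miR-100-5p and miR-125-5p, from hairpins between 18471434 and 18472424 of chromosome 2L (plus strand). Together they had 30 counts in late libraries (1 to 10, median 5.0), 6 at stage 4 and 15 in early libraries (1 to 4, median 2.5). Every library held at least 1 count of the complex. let-7-5p had 12 late and 6 early counts, a pooled ratio of 1.15 (interval 0.4 to 3.74, edgeR adjusted p = 0.818), and 2 counts in each stage 1 library. miR-125-5p, the fly relative of worm lin-4, had 11 late and 5 early counts (ratio 1.27, interval 0.406 to 4.65, edgeR adjusted p = 0.796), and miR-100-5p 7 late and 4 early (ratio 1.01, interval 0.256 to 4.7, edgeR adjusted p = 0.994). All 3 intervals include a 3-fold late rise.

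The clusters known from adult testis had 8 rare arms with 21 late, 18 stage 4 and 36 early counts. Their summed level ran from 27.6 to 192 CPM in late libraries (median 63.1) and from 0.0 to 519 CPM in early libraries (median 86.2), with no count in either stage 1 library. Stage 3 replicate 1 held 25 of the 36 early counts (69.4%) at 22.9% of the early depth. With it the pooled level was 70.7 CPM late and 210 CPM early, and without it 81.7 CPM early. Of the 8 arms 7 had the lower pooled level late, none passed the test, and 2 had an unadjusted p under 0.05. Among all 190 tested arms, 110 had an unadjusted p under 0.05. The tally of 7 also rested on that library. Without stage 3 replicate 1, 4 arms were lower late, 3 were higher and 1 had no count in either period, while without any other single library 7 or 8 were lower. The 6 arms miR-959-3p, miR-959-5p, miR-961-5p, miR-962-5p, miR-963-5p and miR-964-5p come from neighbouring hairpins between 5640940 and 5642201 of chromosome 2L. miR-962-5p had 3 late, 10 stage 4 and 8 early counts, of which stage 4 replicate 2 held 8 and stage 3 replicate 1 held 7 (ratio 0.216, interval 0.0369 to 0.9, edgeR adjusted p = 0.137). Without stage 3 replicate 1 its ratio was 1.36. miR-961-5p had 1 late count and 6 early ones, 4 of them in stage 3 replicate 1 (ratio 0.096, interval 0.00209 to 0.792, edgeR adjusted p = 0.0573). miR-964-5p was the arm with the higher pooled late level, with 8 late and 4 early counts (ratio 1.15, interval 0.309 to 5.23, edgeR adjusted p = 0.878). Its ratio was 3.84 without stage 3 replicate 2, which held 3 of the 4 early counts. The X-linked miR-972-3p had all 3 of its counts in stage 3 replicate 1, and miR-984-5p had 1 late and 2 early counts.

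**Figure D4:**
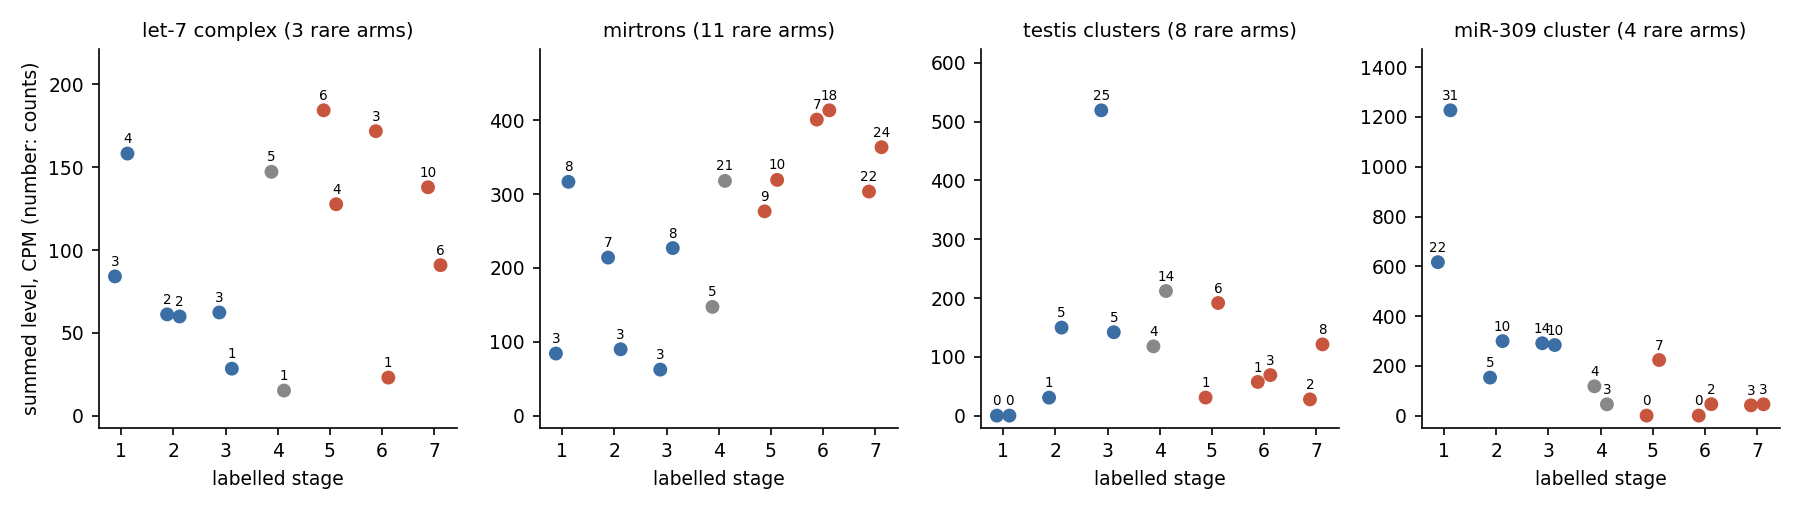
Each point is a library, with its labelled stage on the x axis and the summed level of the rare arms of 4 lists in CPM of the library total on the y axis; the number is the count, and colours mark late (red), stage 4 (grey) and early (blue) libraries. The testis clusters are highest in stage 3 replicate 1 with 519 CPM, and the mirtrons lie between 277 and 413 CPM in late libraries.

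Some rare arms had reads in most stages. Among the 13 arms found in 9 or more libraries none was called. Presence in that many libraries requires counts in both periods. With totals of at most 50, this choice limits large differences between the periods. How far it accounts for the lack of calls was not tested. miR-7-5p, the guide of a miRNA known for keeping photoreceptor and sense organ fates stable and made from an intron of HnRNP-K, had 0 to 4 counts in late libraries (median 2.5), against 0 to 7 in early libraries (median 4.5). Its ratio was 0.288 (counting interval 0.131 to 0.599), and it did not pass the test over libraries (edgeR adjusted p = 0.0656). The passengers miR-2a-1-5p, miR-2a-2-5p and miR-2b-1-5p of the miR-2 family, which represses proapoptotic genes, had 9, 18 and 12 late counts against 10, 13 and 19 early counts (ratios 0.519, 0.798 and 0.364, edgeR adjusted p = 0.281, 0.639 and 0.113). miR-13a-3p, a guide of the same family, had 10 late and 15 early counts (ratio 0.384, interval 0.154 to 0.914, edgeR adjusted p = 0.132), and its ratio was 0.96 without stage 3 replicate 2, which held 10 of the 15. Others of this kind were miR-184-5p (12 late, 8 early), miR-282-5p (13 late, 15 early), miR-308-5p from an intron of the ribosomal protein gene RpS23 (9 late, 6 early), miR-965-5p (6 late, 9 early) and miR-219-5p (4 late, 7 early). Their adjusted p-values in edgeR ran from 0.162 to 0.829.

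Rare arms fell into 45 passengers, whose partner arm had more counts, 41 leading arms of their hairpin, 2 arms with equal partners and 5 with no partner listed. Among passengers 8 rose and 2 fell, and among leading arms 12 rose and 2 fell, or 22.2% and 34.1% called against 52.1% of all tested arms. The partners of all 10 called passengers passed in the same direction. Many passengers that were not called also had a called partner, such as miR-184-5p and miR-275-5p. For comparison, 52.1% of all tested arms and 76.3% of arms with more than 50 counts were called in either direction. Over all 45 passengers, 30 fitted changes had the sign of the partner, and 18 of 25 with 10 or more counts. Spearman's rho between passenger and partner was 0.76 over the 45 pairs. This is a description across arms that share libraries and scaling, some pairs share a partner, and some pairs have both arms among the rare ones.

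For some other passengers the fitted change had the sign opposite to that of the partner, but none of those named here passed. miR-275-5p had 15 late counts and 3 early counts, while its partner miR-275-3p had 117 late and 1125 early (log2 fold change -4.12 ± 0.418, SE, edgeR adjusted p = 2.83e-09). The passenger thus made up 11.4% of the reads of its hairpin in late libraries and 0.266% in early libraries. It did not pass, and 14 of its 18 counts were in stage 7 replicate 1, without which its ratio was 0.254 in place of 2.88. miR-968-3p had 3 late and 3 early counts, with 14 more in stage 4 replicate 2 (-0.63 ± 1.17, edgeR adjusted p = 0.668). Its partner miR-968-5p had 722 late and 58 early (2.91 ± 0.599, edgeR adjusted p = 0.000165). miR-184-5p had 12 late and 8 early counts (-0.21 ± 0.712, edgeR adjusted p = 0.818). Its partner had 14236 and 3146 (1.39 ± 0.288, edgeR adjusted p = 0.000181), which made the passenger 0.0842% of its hairpin late and 0.254% early.

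**Figure D5:**
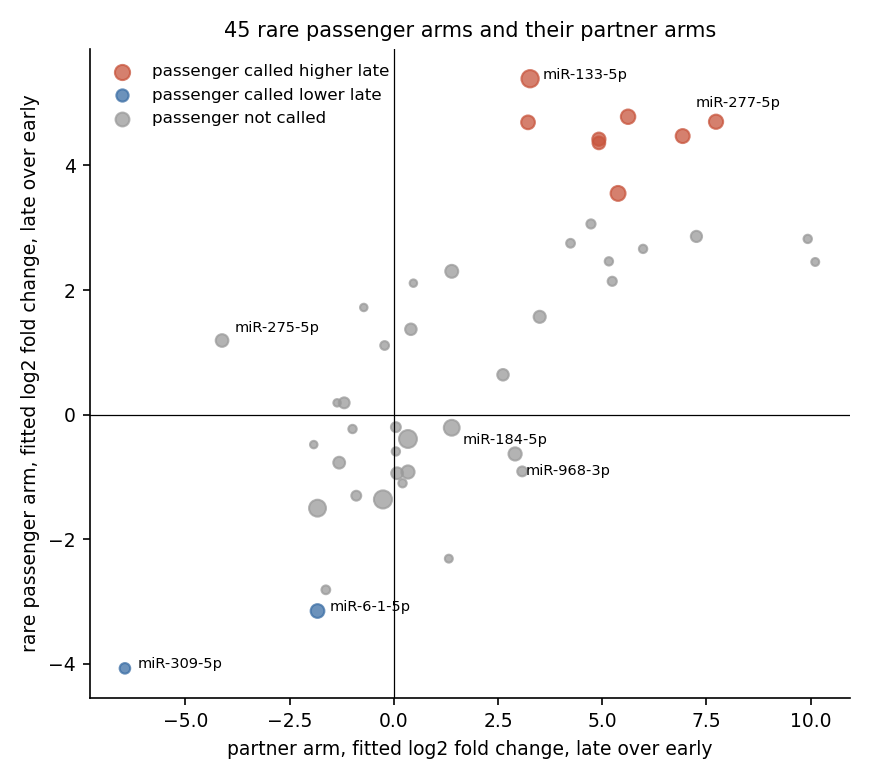
Each point is a rare passenger arm, with the fitted log2 fold change (late over early) of its partner arm on the x axis and its own on the y axis; the point area grows with the total count of the passenger, and colours mark its call. Fitted values of arms with no count in a period depend on the prior count. Called passengers lie in the upper right or lower left, and miR-275-5p lies above 0 while its partner has -4.12.

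Rare hairpins were found on all 5 large chromosome arms. Of the 78 hairpins, 36 (46.2%) lay inside a protein-coding gene on the same strand, 30 of them in introns, against 26 of 68 (38.2%) for hairpins of arms with more than 50 counts, 24 of them in introns. Some hairpins are in both sets, because their arms differ in abundance, and no test was made of this difference.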

How the data were processed

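Small RNA was sequenced from 14 embryo libraries. Per the labels, 1 ng of total RNA entered a modified TruSeq small RNA preparation with 15 PCR cycles. The deposited values are raw read counts per mature arm; the submitters' processing notes name Bowtie, HTSeq and dm6. How reads matching several loci were counted, and the annotation release, are unstated in the sources used here, so arms of near-identical copies (miR-2, miR-6, miR-13) are uncertain. Columns were matched to libraries by title, and replicates were numbered in accession order.

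Counts were tested with edgeR 4.0.16 in R 4.3.3 over 190 arms with a total of 3 or more, with 3 coefficients (early, stage 4, late), TMM factors and 11 residual degrees of freedom; standard errors came from the F statistic. Separate stage coefficients were an alternative only, since their mean log levels are undefined for stages at 0. Alternatives were DESeq2 1.42.0, other scalings, filters, stages and each library left out. Pooled levels are counts over summed effective library sizes, and intervals are exact at 95%. At least folds use 3 counts over the empty group and leave out the counting error of the other group. Equal-depth numbers are hypergeometric expectations. No p-value is given for sums over the rare arms. The code was tested on simulated data. Hairpins were matched by name to an Ensembl annotation in dm6 coordinates.

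The members, lists, tests and alternatives were chosen with earlier results of these data known. Named arms are the 12 largest totals, the calls, the let-7, mirtron and testis lists, arms in 9 or more libraries, the 8 largest and 8 smallest differences, and passengers of the 5 most abundant arms, of which there were none. Arms named outside the rule after their values were seen are miR-34-5p, miR-275-5p, miR-968-3p and the partner arms. Replicate pairs of each stage differed by more than sampling noise. Over the arms with enough counts in a pair, chi-square per degree of freedom ran from 2.04 at stage 2 to 107.65 at stage 7. The counting intervals leave this spread out.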

Additional observations from a re-analysis of the deposited data

Results flagged for a closer look

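In groups of 6 libraries, 4 values stood far from the rest of their group, measured by the gap to the nearest library over the whole range. For normally distributed values chance alone does this in about 1 of 20 groups. The rate for small counts at unequal depth was not worked out, and the number of groups examined is not given. The 4 values therefore cannot be set against that rate. The summed share of the rare arms was 0.237% in stage 1 replicate 2, above the other early libraries, which reached 0.172%. miR-6-2-5p reached 514 CPM in the same library with 13 counts, and 223 CPM in stage 5 replicate 2 with 7 counts among the late libraries. miR-7-5p reached 229 CPM in stage 6 replicate 1, which is 4 counts in the shallowest library. Single arms were examined here for the 12 largest totals, in periods with 10 or more counts.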

How the results depend on the processing

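The late minus early share of the rare arms was 0.165 percentage points and became -0.0418 without miR-286-3p in the total, 0.0851 against effective library sizes and 0.00964 without the called arms, a drop that their choice brings. Against effective library sizes the late and early libraries did not overlap. With miR-286-3p out of the total and each library also left out, the difference was 0.00119 without stage 1 replicate 2 and negative without any other. It was -0.0375, -0.0628, -0.0565, -0.0453 and -0.0497 without the other early libraries in order of stage and replicate, -0.0418 without either stage 4 library, and -0.0363, -0.0392, -0.0542, -0.0376, -0.048 and -0.0352 without the late libraries in that order. The late minus early number of rare arms at equal depth was 16.5, and 25.5 without thinning, 11.6 at 10000 counts and 4.61 with miR-286-3p removed first. Among the rare arms 25 were called, and 17 to 29 under the other settings that could be fitted, with the fewest in DESeq2 (all 17 among the 25) and the most with library size alone, which moved the median log2 change of all arms by 0.43. With filterByExpr no rare arm was left to test. In every other setting run, 16 of the 25 calls held. The number of rare arms with the higher late level was 53, and 34 of those with totals of 10 to 50 (60.7%) and 27 of those that are not passengers (56.2%), which are shorter lists. Leaving out each library under the main settings moved none of these 4 results beyond the limits used. Removing the called arms, the passengers, miR-286-3p before the edgeR test, miR-286-3p together with each library, or stage 4 replicate 1 with stage 7 replicate 2 from the pooled measures was chosen after seeing the data. No paired analysis was possible because the labels carry no replicate numbers. Depth limits the arms with fewer than 10 counts, none of which was called.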

Other observations

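Some rare arms had most of their reads in a single library. Of the 93 rare arms, 29 had at least 50% of their counts in a single library, and for 11 of the 29 this was stage 7 replicate 1, the deepest library with 72507 counts. Small totals reach such a share easily. Among the larger totals were miR-314-5p (15 of 27), miR-314-3p (13 of 20) and miR-275-5p (14 of 18) in stage 7 replicate 1 and miR-968-3p (14 of 20) in stage 4 replicate 2. The 4 examples were picked with their values in view.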
